A study of Mus musculus with 18 samples.

Results

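The genes described here serve antigen presentation by MHC class II molecules: H2-Aa, H2-Ab1, H2-Eb1, H2-DMa, H2-DMb1, Cd74 and Ciita. They were chosen by name, as the probe sets annotated to that symbol alone, with the highest mean kept where a gene had several. Of the 7 genes, 6 had such a probe set among the 19938 genes of the array, and all 6 entered the tests of 13387 genes. H2-DMb1 had no value of its own, since its only probe set is shared with its near-identical neighbour H2-DMb2.

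Expression was measured on 18 arrays of cells sorted by flow cytometry from mouse bone marrow, with 9 arrays from Ly-6C(hi) monocytes and 9 from neutrophils, all on a C57BL/6 background. Each cell type was represented by 4 arrays of Zeb2(fl/fl);Mx1-Cre(tg) mice given poly(I:C), labelled Zeb2-deficient, 4 of Zeb2(fl/fl) mice given poly(I:C), and 1 of an untreated Zeb2(fl/fl) mouse. Poly(I:C), a mimic of double-stranded RNA that induces interferon, was injected 2 times at 150 µg within 48 h, and cells were collected 3 weeks after it. Zeb2 encodes a zinc-finger transcriptional repressor. Mx1-Cre is switched on by interferon in many tissues and is not restricted to the cells sorted. All groups share the floxed Zeb2 alleles, and the controls carry no Cre, so Cre activity and loss of Zeb2 cannot be told apart. The labels do not state that the arrays of a group are separate animals, so a p-value here reflects variation between samples that may be only technical.

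A class II molecule is a pair of an alpha and a beta chain that carries peptides from endosomes to the cell surface, where CD4+ T cells read them. H2-Aa and H2-Ab1 encode the alpha and beta chains of I-A, the class II molecule of C57BL/6 mice, and H2-Eb1 the beta chain of I-E. Cd74 is the invariant chain that blocks the groove until endosomal proteases degrade it, and H2-DM, made of H2-DMa and H2-DMb1, then exchanges its remnant for peptide. Ciita is the coactivator that assembles on the conserved X and Y boxes of class II promoters. Dendritic cells and B cells are the main class II positive cells of the marrow, monocytes acquire class II as they differentiate, and resting mouse neutrophils are usually counted as class II negative.

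The H2 genes lie together on chromosome 17 (GRCm38.p6): H2-DMa at chr17:34119693-34139101, H2-DMb1 at chr17:34153191-34160229, H2-Ab1 at chr17:34263227-34269418, H2-Aa at chr17:34282744-34287823 and H2-Eb1 at chr17:34305867-34316674. Ciita lies at chr16:10480014-10531064. Of the 7 genes, 4 had a promoter in the RefSeq table of this build, namely H2-Aa, H2-Eb1, H2-DMb1 and H2-DMa. The 250 bases before each start site were searched on both strands for an X1 core (CTNGNAAC) and a Y box (GATTGG), letters settled after these sequences had been seen. The 120 bases before the start site are shown for the 3 genes with an X1 core followed by a Y box at most 40 bases on, since they share the layout that the class II transcription complex reads. Each reads 5′ to 3′ on the gene's strand, and capitals mark the X1 core and the Y box, including 1 Y box of H2-Eb1 on the other strand, which reads CCAATC.
H2-Aa: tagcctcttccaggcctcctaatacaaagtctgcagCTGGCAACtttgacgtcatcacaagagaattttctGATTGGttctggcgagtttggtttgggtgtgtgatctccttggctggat
H2-Eb1: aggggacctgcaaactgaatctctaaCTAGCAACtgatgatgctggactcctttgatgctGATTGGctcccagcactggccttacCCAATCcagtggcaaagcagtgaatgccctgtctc
H2-DMb1: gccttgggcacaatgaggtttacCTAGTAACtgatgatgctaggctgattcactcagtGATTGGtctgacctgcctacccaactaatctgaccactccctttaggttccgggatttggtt
The windows are chr17:34287824-34287943 on the minus strand for H2-Aa, chr17:34305747-34305866 on the plus strand for H2-Eb1 and chr17:34153071-34153190 on the plus strand for H2-DMb1. The X1 core begins 84, 94 and 97 bases before the start site in H2-Aa, H2-Eb1 and H2-DMb1, and 27, 26 and 27 bases separate it from the Y box. Among the 32851 promoter windows of the table, searched over the same 250 bases, an X1 core stood in 10.9% and a Y box in 14.6%. The X1 core followed by the Y box on the gene's strand stood in 27 windows (0.0822%) of 25 genes, among them H2-Aa, H2-Eb1, H2-DMb1 and a 4th class II chain, H2-Ob. H2-DMa has 2 windows in the table, neither with an X1 core and 1 with a Y box. A match describes the letters of these windows and is no measure of binding.

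Values are log2 intensities, and a value was compared with its own array's 40th percentile over all probe sets, called the floor here, which ran from 4.28 to 4.37 in monocytes and from 4.4 to 4.5 in neutrophils. The level of 1 probe set is not set against that of another. Several arrays stood apart in ways that touch the results. The mean of 12 neutrophil markers was 9.74 to 10.55 in monocytes labelled Zeb2-deficient, against 6.94 to 8.30 in control monocytes. The mean of 10 Ly-6C(hi) monocyte markers was 9.01 to 10.04 in monocytes labelled Zeb2-deficient, against 10.15 to 10.30 in controls. Zeb2 itself read 9.75, 9.84, 9.46 and 8.74 in monocytes labelled Zeb2-deficient, against 10.08, 9.88, 9.88 and 9.86 in controls, a difference of -0.48 ± 0.24 (SE, adjusted p = 0.272) that was -0.18 within set A (adjusted p = 0.874) and -0.77 within set B (adjusted p = 0.035). The Zeb2 mean in neutrophils was 7.73 ± 0.48 in samples labelled Zeb2-deficient, against 7.24 ± 0.30 in controls (SD, n = 4 each), a difference of 0.49 ± 0.24 (SE, adjusted p = 0.972). Its probe set summarises the whole transcript and does not check the deletion, so directions below belong to samples as labelled. The arrays were also deposited in 2 consecutive runs, which the labels do not name. Set A holds controls 1 and 2 and labelled Zeb2-deficient arrays 1 and 2 of each cell type with the untreated arrays, and set B holds controls 4 and 5 with labelled Zeb2-deficient arrays 3 and 4.

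The 1st comparison asked how control monocytes and control neutrophils differ. All 6 measured class II genes were higher in control monocytes, against 29.9% of all genes tested. The median difference of the 6 genes was 3.14, and that of all genes tested was -0.08. In order of size the differences ran from 0.50 for Ciita to 3.69 for Cd74, and for each of the 6 genes no control monocyte array overlapped a control neutrophil array, as for 28.6% of all genes.

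The I-A chains were among the clearest. H2-Aa read 7.40, 7.99, 8.51 and 7.76 in control monocytes, against 4.95, 4.33, 4.65 and 4.22 in control neutrophils, a difference of 3.38 ± 0.24 (SE), or 10.4-fold (adjusted p = 1.77e-09). Only 2 of the 4 control neutrophil arrays exceeded the floor for this alpha chain. Its partner H2-Ab1 read 7.72, 8.14, 8.74 and 8.14 in control monocytes, against 5.82, 4.73, 5.31 and 5.28 in control neutrophils, a difference of 2.90 ± 0.31 (SE), or 7.46-fold (adjusted p = 3.02e-07). All 4 control neutrophil arrays were above the floor for the beta chain.

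H2-Eb1, the I-E beta chain, differed less. It read 5.81, 6.33, 6.58 and 6.33 in control monocytes, against 5.38, 5.27, 5.67 and 5.59 in control neutrophils, a difference of 0.79 ± 0.18 (SE), or 1.73-fold (adjusted p = 0.00101). The lowest monocyte array lay only just above the highest neutrophil array. Its alpha partner H2-Ea, whose promoter is deleted in C57BL/6 mice, was below the floor on every array, between 3.19 and 3.68.

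Both genes of the loading step with a value were high in control monocytes. Cd74 read 8.55, 8.90, 8.99 and 8.67 in control monocytes, against 5.71, 4.56, 5.18 and 4.91 in control neutrophils, a difference of 3.69 ± 0.26 (SE), or 12.9-fold (adjusted p = 1.28e-09). H2-DMa, the alpha chain of the peptide exchanger, read 8.80, 9.08, 8.46 and 8.34 in control monocytes, against 5.01, 5.27, 5.16 and 5.20 in control neutrophils, a difference of 3.51 ± 0.30 (SE), or 11.4-fold (adjusted p = 1.41e-08). In both genes every monocyte array lay above the neutrophil range.

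Ciita, the coactivator of the other genes, lay near the middle of each array's values, at the percentiles 53.6 to 58.7 in control monocytes and 42.6 to 51.9 in control neutrophils. It read 5.41, 5.04, 5.22 and 5.26 in control monocytes, against 4.78, 4.94, 4.55 and 4.64 in control neutrophils. The difference of 0.50 ± 0.13 (SE), or 1.42-fold, passed the test (adjusted p = 0.00246) but missed it within set A (0.36 ± 0.20 (SE), adjusted p = 0.158).

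In the samples labelled Zeb2-deficient, all 6 genes were again higher in monocytes than in neutrophils, against 30% of all genes tested, with a median of 2.69 against -0.09 over all genes. The difference was 2.66 for H2-Aa, 2.71 for H2-Ab1, 2.99 for H2-DMa and 2.85 for Cd74, each with an SE of 0.24 to 0.31 and an adjusted p between 4.84e-08 and 8.43e-07. For these 4 genes and Ciita no monocyte array overlapped a neutrophil array, as for 25.2% of all genes in that direction. H2-Eb1 differed by 0.46 ± 0.18 (SE, adjusted p = 0.0324), with overlapping arrays, and missed the test within set A (0.21, adjusted p = 0.385) and after quantile normalization (0.25, adjusted p = 0.227). Ciita differed by 0.38 ± 0.13 (SE, adjusted p = 0.0146) and missed the test within set B (0.20, adjusted p = 0.284) and without monocyte array 2 labelled Zeb2-deficient (0.26, adjusted p = 0.0631).

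**Figure D1:**
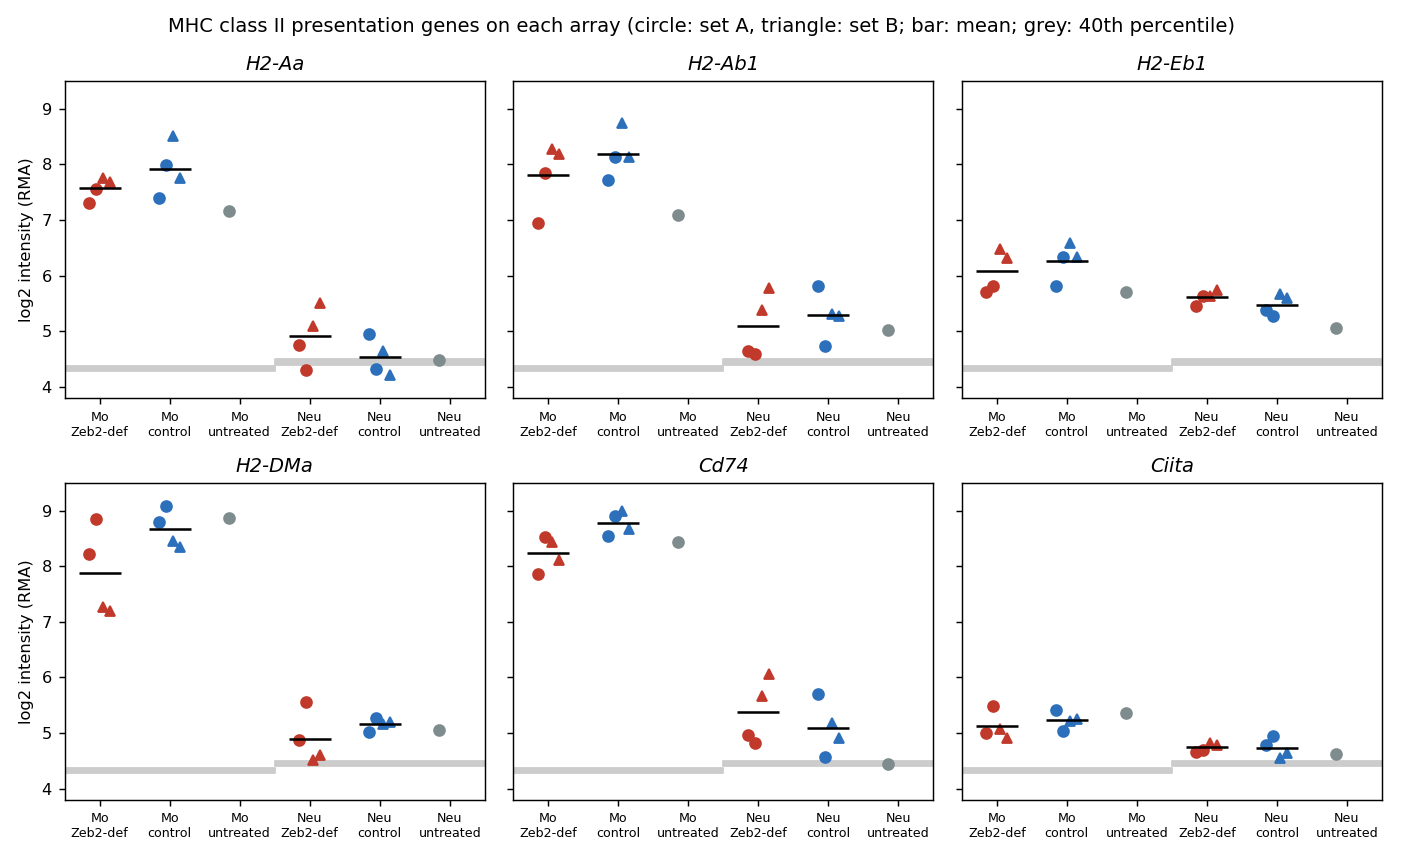
Log2 RMA intensity of each class II gene with a value on every array, by cell type (Mo, monocyte; Neu, neutrophil) and group; circles are arrays of set A, triangles of set B, black bars the means of the groups of 4, and grey bands the range of the arrays' 40th percentiles. H2-Aa, H2-Ab1, H2-DMa and Cd74 separate the cell types in every group, and Ciita separates them by less. H2-Eb1 separates them by less in the controls and overlaps in the samples labelled Zeb2-deficient. In the monocytes only Cd74 has labelled Zeb2-deficient arrays that all lie below the controls.

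The 2nd comparison asked which class II genes differ in monocytes labelled Zeb2-deficient. None of the 6 genes passed the adjusted threshold, against 7.54% of all genes tested, and 2 of the 6 had an unadjusted p under 0.05, which was 0.0163 for H2-DMa and rounds to 0.05 for Cd74. All 6 differences were below 0, as were 57.4% of those of all genes tested. Their median was -0.36, against -0.03 over all genes. The same samples carried the higher neutrophil markers and the lower monocyte markers given above, and the part of those cells or transcripts in the class II differences was not tested. In sorted bulk samples, fewer cells of a type and less RNA per cell cannot be told apart.

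Cd74 was the 1 class II gene of which every labelled Zeb2-deficient array lay below every control, as for 3.92% of all genes tested. The invariant chain read 7.85, 8.53, 8.43 and 8.11 in monocytes labelled Zeb2-deficient, against 8.55, 8.90, 8.99 and 8.67 in controls. The means were 8.23 ± 0.31 in samples labelled Zeb2-deficient and 8.78 ± 0.20 in controls (SD, n = 4 each), a difference of -0.55 ± 0.26 (SE) with adjusted p = 0.248. The highest of the labelled Zeb2-deficient arrays lay just under the lowest control. Within set A the difference was -0.53 ± 0.33 (SE), and within set B it was -0.56 ± 0.20 (SE).

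H2-DMa had the largest difference of the 6 genes, and its size differed between the array sets. It read 8.21, 8.84, 7.27 and 7.19 in monocytes labelled Zeb2-deficient, against 8.80, 9.08, 8.46 and 8.34 in controls. Arrays 1, 3 and 4 were below every control, with 3 and 4, of set B, lowest, and array 2 lay within the control range. The means were 7.88 ± 0.79 in samples labelled Zeb2-deficient and 8.67 ± 0.34 in controls (SD, n = 4 each), a difference of -0.79 ± 0.30 (SE), or 0.578-fold, with a 95% interval of -1.42 to -0.16 and adjusted p = 0.126. Within set A the H2-DMa difference was -0.41 ± 0.26 (SE, adjusted p = 0.70), and within set B it was -1.17 ± 0.15 (SE, adjusted p = 0.000388). It passed the threshold with the array set as a block (-0.79 ± 0.22 (SE), adjusted p = 0.0248) and without labelled Zeb2-deficient array 2 (-1.11 ± 0.25 (SE), adjusted p = 0.00577). It did not pass with the replicate number as a block (-0.68 ± 0.21 (SE), adjusted p = 0.0708). Number 3 joins labelled Zeb2-deficient arrays only to untreated arrays, and number 5 holds controls only. That block therefore compares the poly(I:C) groups directly only within numbers 1, 2 and 4. Among the 4 labelled Zeb2-deficient monocyte arrays, array 2 also had the lowest neutrophil marker mean, 9.74 against 10.55, 10.39 and 10.26 on arrays 1, 3 and 4, and the highest monocyte marker mean, 10.04 against 9.37, 9.42 and 9.01. The part of these transcripts in the H2-DMa level was not tested.

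The I-A and I-E chains did not pass the test in monocytes labelled Zeb2-deficient. H2-Aa read 7.31, 7.56, 7.75 and 7.68 in monocytes labelled Zeb2-deficient, against 7.40, 7.99, 8.51 and 7.76 in controls, a difference of -0.34 ± 0.24 (SE, adjusted p = 0.495). H2-Ab1 read 6.94, 7.85, 8.28 and 8.18 in monocytes labelled Zeb2-deficient, against 7.72, 8.14, 8.74 and 8.14 in controls, a difference of -0.37 ± 0.31 (SE, adjusted p = 0.579). H2-Eb1 read 5.71, 5.81, 6.48 and 6.31 in monocytes labelled Zeb2-deficient, against 5.81, 6.33, 6.58 and 6.33 in controls, a difference of -0.18 ± 0.18 (SE, adjusted p = 0.647). For each of these chains the labelled Zeb2-deficient and control arrays overlapped. Their 95% intervals reached from -0.86 to 0.17 for H2-Aa, from -1.03 to 0.28 for H2-Ab1 and from -0.56 to 0.19 for H2-Eb1, so differences anywhere within those bounds could not be told apart with 4 arrays a group.

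Ciita read 5.0, 5.49, 5.08 and 4.91 in monocytes labelled Zeb2-deficient, against 5.41, 5.04, 5.22 and 5.26 in controls, with a mean of 5.12 ± 0.25 against 5.23 ± 0.15 in controls (SD, n = 4 each). The difference of -0.11 ± 0.13 (SE) did not pass the test (adjusted p = 0.71), and the arrays of the groups overlapped.

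The 3rd comparison asked the same of neutrophils. None of the 6 genes passed the threshold in neutrophils labelled Zeb2-deficient, with an adjusted p of 0.999 for each, against 0.12% of all genes tested. The differences were 0.38 for H2-Aa, -0.19 for H2-Ab1, 0.14 for H2-Eb1, -0.27 for H2-DMa, 0.29 for Cd74 and 0.01 for Ciita, each with an SE of 0.13 to 0.31. So 2 of 6 were below 0, against 52.6% of all genes, and the median was 0.08 against -0.01.

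Inside the neutrophils labelled Zeb2-deficient, arrays 3 and 4 stood above the others in 3 class II genes. H2-Aa read 4.75, 4.3, 5.09 and 5.51 there, against 4.95, 4.33, 4.65 and 4.22 in control neutrophils. H2-Ab1 read 4.64, 4.60, 5.39 and 5.77 in neutrophils labelled Zeb2-deficient, against 5.82, 4.73, 5.31 and 5.28 in controls. Cd74 read 4.97, 4.82, 5.67 and 6.06 in those samples, against 5.71, 4.56, 5.18 and 4.91 in controls. Arrays 3 and 4 exceeded arrays 1 and 2 by a mean of 0.78 for H2-Aa, 0.96 for H2-Ab1 and 0.97 for Cd74, whereas between the set B and set A controls the differences were -0.21 for H2-Aa, 0.02 for H2-Ab1 and -0.09 for Cd74. On the same arrays 3 and 4 the mean of the Ly-6C(hi) monocyte markers was 4.86 and 5.08, against 4.67 to 4.79 on the other poly(I:C) neutrophil arrays. Between 4 and 7 of the 10 markers exceeded the floor on the labelled Zeb2-deficient neutrophil arrays, against 4 to 5 on the controls. Of the 10 markers, 3 differed below 0 in neutrophils labelled Zeb2-deficient, against 52.6% of all genes. None passed the test, against 0.12% of all genes. Ly86 averaged 4.40 in samples labelled Zeb2-deficient and 4.04, under the floor, in controls. Cd14 averaged 7.28 in samples labelled Zeb2-deficient and 6.84 in controls, but it was no higher in control monocytes, at 6.64. F13a1 averaged 4.47 in samples labelled Zeb2-deficient and 4.68 in controls, and Csf1r averaged 7.48 and 7.54. Ms4a6c, Ms4a6b and Ms4a4c were below the floor on every neutrophil array. The part of such transcripts in the class II levels was not tested. Within set A, which leaves out labelled Zeb2-deficient arrays 3 and 4 and also controls 4 and 5, the neutrophil difference was -0.11 for H2-Aa, -0.65 for H2-Ab1 and -0.24 for Cd74.

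The other class II genes showed no such step in neutrophils, apart from H2-DMa, which was lower on arrays 3 and 4. H2-Eb1 read 5.46, 5.64, 5.63 and 5.74 in the samples labelled Zeb2-deficient, against 5.38, 5.27, 5.67 and 5.59 in controls. H2-DMa read 4.87, 5.55, 4.52 and 4.60 in samples labelled Zeb2-deficient, against 5.01, 5.27, 5.16 and 5.20 in controls. Ciita read 4.66, 4.70, 4.82 and 4.78 in samples labelled Zeb2-deficient, against 4.78, 4.94, 4.55 and 4.64 in controls. The groups overlapped in all 3 genes, and 3 of the 4 labelled Zeb2-deficient arrays were below the lowest control for H2-DMa.

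The change in monocytes was then set against that in neutrophils by testing the difference between the changes. None of the 6 genes passed, against 2.68% of all genes tested. All 6 differences were below 0, against 54% of all genes, and their median was -0.42 against -0.02. Cd74 had a difference of -0.83 ± 0.37 (SE, unadjusted p = 0.0362, adjusted p = 0.319) and H2-Aa one of -0.72 ± 0.35 (SE, adjusted p = 0.38). The other differences were -0.19 for H2-Ab1, -0.33 for H2-Eb1 and -0.12 for Ciita. Within set B the Cd74 difference was -1.37 ± 0.28 (SE, adjusted p = 0.0137), where the neutrophil arrays 3 and 4 described above enter. For H2-DMa the difference was -0.52 ± 0.42 (SE, adjusted p = 0.674), so its changes in the cell types are not shown to differ.

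**Figure D2:**
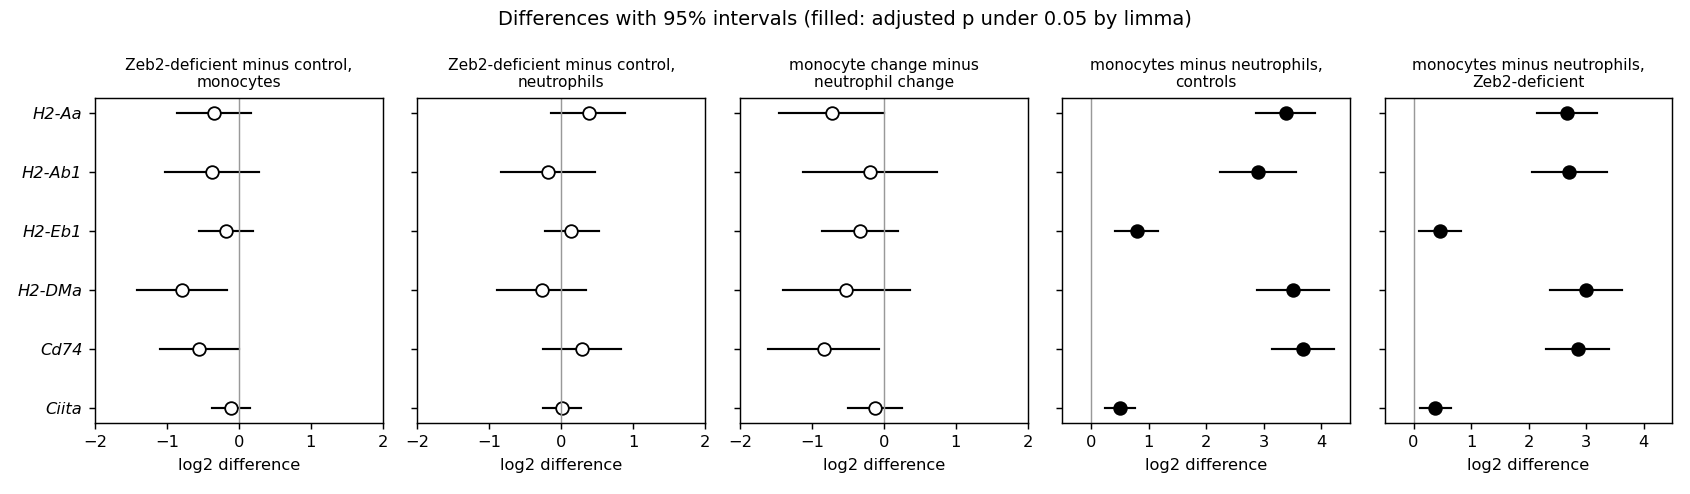
Log2 differences of the 6 class II genes in the 5 comparisons, as points with 95% intervals from limma; filled points have an adjusted p under 0.05. Every point of the comparisons of monocytes with neutrophils is filled, and none of those between samples labelled Zeb2-deficient and controls is.

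**Figure D3:**
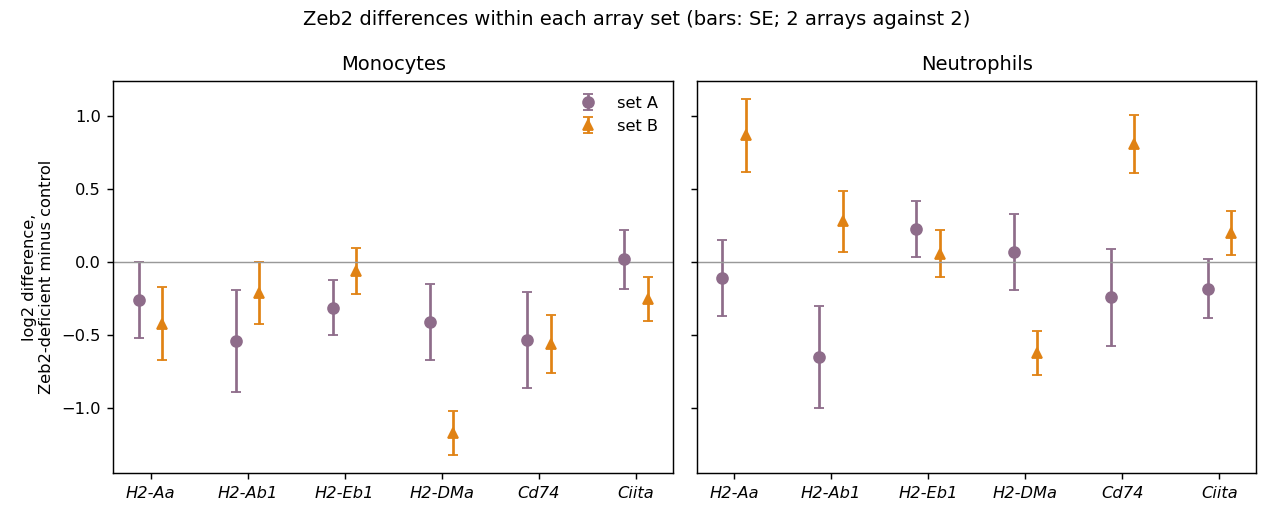
Log2 difference between samples labelled Zeb2-deficient and controls for each class II gene, within array set A (circles) and set B (triangles), with SE bars, from 2 arrays against 2. In monocytes H2-DMa shows -0.41 in set A and -1.17 in set B while Cd74 shows -0.53 and -0.56, and in neutrophils H2-Aa, H2-Ab1 and Cd74 are below 0 in set A and above 0 in set B.

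The single untreated control arrays allow no test. In monocytes the untreated array lay below all 4 poly(I:C) controls for 4 of the 6 genes, against 15.4% of all genes tested, and above them for none, against 22.6%. It read 7.17 for H2-Aa, 7.09 for H2-Ab1, 5.70 for H2-Eb1 and 8.44 for Cd74, and the mean of the 4 poly(I:C) controls exceeded it by 0.75, 1.10, 0.56 and 0.34. For H2-DMa (8.87) and Ciita (5.36) the untreated monocyte array lay within the range of the poly(I:C) controls. In neutrophils it lay below all 4 controls for H2-Eb1 (5.06) and Cd74 (4.45), 2 of the 6 genes against 18.6% of all genes, above them for none, against 18.4%, and within their range for H2-Aa (4.49), H2-Ab1 (5.02), H2-DMa (5.06) and Ciita (4.62). Both untreated arrays belong to set A.

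The class II genes did not vary as a block among the arrays of a group. Deviations from the group means were correlated over the 8 poly(I:C) arrays of a cell type, which share the array sets, and the values are given as a description. In monocytes the deviations of H2-Aa, H2-Ab1 and H2-Eb1 ran together, with r of 0.82 to 0.87 between each pair. Cd74 followed H2-Aa at 0.69 and H2-Ab1 at 0.75. H2-DMa ran opposite to the I-A and I-E chains, at -0.71 with H2-Eb1, -0.51 with H2-Ab1 and -0.29 with H2-Aa. With Cd74 it ran at 0.14 and with Ciita at 0.55. In neutrophils Cd74 followed H2-Ab1 at 0.99 and H2-Aa at 0.94, while H2-Eb1 ran at 0.19 with H2-Aa and 0.45 with H2-Ab1. There H2-DMa ran at -0.84 with H2-Aa, -0.75 with Cd74 and -0.72 with H2-Ab1, but at -0.08 with H2-Eb1.

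The opposite course of H2-DMa was visible between the array sets. In monocytes labelled Zeb2-deficient its set B mean was 7.23 and its set A mean 8.53, a difference of -1.3, and in control monocytes the set B mean was 8.40 and the set A mean 8.94, a difference of -0.54. The same subtraction in monocytes labelled Zeb2-deficient gave 0.28 for H2-Aa, 0.83 for H2-Ab1 and 0.64 for H2-Eb1. In control monocytes it gave 0.44 for H2-Aa, 0.51 for H2-Ab1 and 0.39 for H2-Eb1. Cd74 differed between the sets by 0.08 in monocytes labelled Zeb2-deficient and by 0.11 in controls. The X1 core and Y box letters were settled after the printed sequences had been seen, so their presence in H2-Aa and H2-Eb1 was fixed beforehand. Neither H2-DMa window holds these X1 letters, which does not show that the gene lacks an X box. H2-Ab1 and Cd74 had no promoter in the RefSeq table, and a bearing of promoters on the pattern was not tested.

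**Figure D4:**
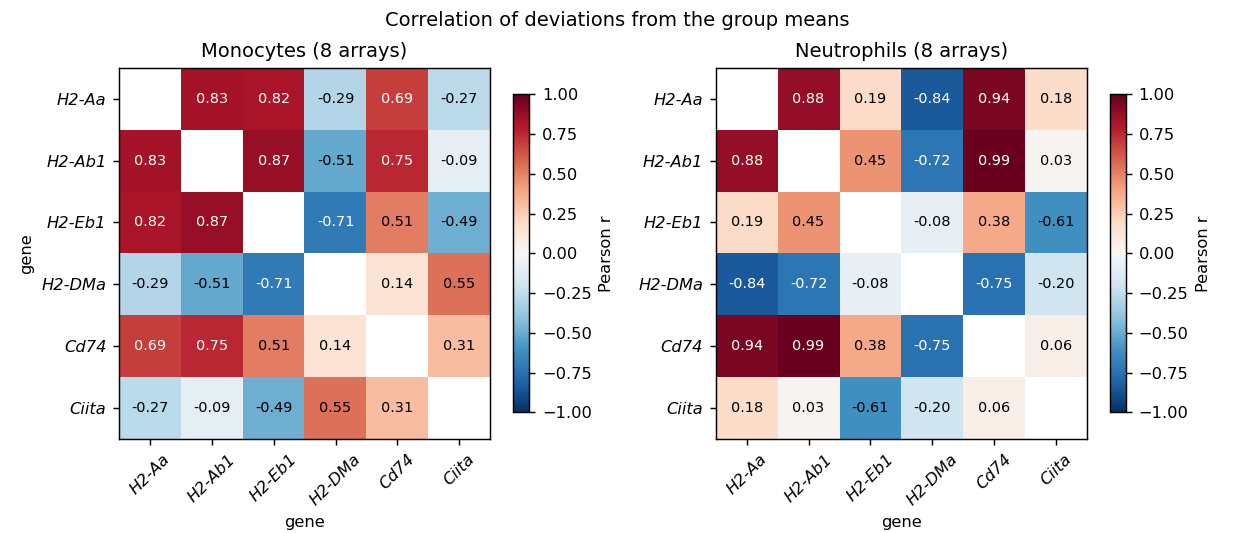
Pearson r between the deviations of each pair of class II genes from their group means, over 8 monocyte arrays and over 8 neutrophil arrays, on a colour scale from -1 (blue) to 1 (red). In monocytes H2-Aa, H2-Ab1 and H2-Eb1 form a block of 0.82 to 0.87 while H2-DMa shows negative values with each of them, and in neutrophils H2-Aa, H2-Ab1 and Cd74 form a block of 0.88 to 0.99.

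The other class II chains were at or near the floor. H2-Oa and H2-Ob form H2-O, an inhibitor of H2-DM found mainly in B cells and some dendritic cells. H2-Oa averaged 4.75 ± 0.48 in monocytes labelled Zeb2-deficient and 4.37 ± 0.23 in controls (SD, n = 4 each), a difference of 0.37 ± 0.18 (SE, adjusted p = 0.268). H2-Ob, whose promoter also holds the X1 core and Y box, averaged 4.59 ± 0.28 in monocytes labelled Zeb2-deficient and 4.75 ± 0.12 in controls (SD, n = 4 each; adjusted p = 0.528). H2-Eb2 was below the floor on every monocyte array and on every control neutrophil array.

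Among 20 tested genes of class II transcription, 2 were higher and 2 lower in monocytes labelled Zeb2-deficient, against 5.11% higher and 2.44% lower of all genes tested. The list's median was -0.09, against -0.03 over all genes. Prdm1 (Blimp-1), a repressor of Ciita in plasma cells, averaged 3.72 in samples labelled Zeb2-deficient, under the floor, and 4.72 in controls (adjusted p = 0.000577). Irf4, an interferon regulatory factor of B cells and dendritic cells, averaged 4.78 in samples labelled Zeb2-deficient and 6.13 in controls, a difference of -1.35 ± 0.30 (SE, adjusted p = 0.00883), and missed the test within set A (-0.93, adjusted p = 0.274) and with only the monocyte arrays in the model (adjusted p = 0.0695). Jak2, a kinase of the interferon-gamma receptor, was higher by 0.61 ± 0.13 (SE, adjusted p = 0.00693), but adjusted p was 0.0636 within set A. Nfyb, a subunit of the NF-Y factor that binds Y boxes, was higher by 0.52 ± 0.15 (SE, adjusted p = 0.0376), a call lost in 10 of 18 alternatives, the replicate block (0.50, adjusted p = 0.0822) among them.

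In control monocytes against control neutrophils the same list had 5 genes higher and 5 lower, against 29.9% and 28.7% of all genes. Irf8, a factor of monocytes and dendritic cells, averaged 8.07 in control monocytes and 5.21 in control neutrophils, a difference of 2.86 (adjusted p = 3.34e-10). Irf4 averaged 6.13 in control monocytes and 3.78 in control neutrophils (adjusted p = 2.63e-06), and Prdm1 averaged 4.72 in control monocytes and 3.28 in control neutrophils (adjusted p = 4.85e-07). Both neutrophil means lay below the floor, so the size of these differences was not measured. Zxdc, a zinc-finger partner of CIITA, differed by -1.46. In neutrophils labelled Zeb2-deficient none of the 20 passed, against 0.12% of all genes tested. Of the 20 genes, 1 passed the test of a difference between the changes, against 2.68% of all genes tested. This was Prdm1 (adjusted p = 0.0101), but with its control neutrophil mean below the floor a fall could not have been measured in neutrophils. The value therefore restates the monocyte difference.

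The processing and turnover list, of endosomal proteases and regulators of class II traffic, had 15 tested genes, of which 1 was higher and 2 were lower in monocytes labelled Zeb2-deficient, against 5.11% higher and 2.44% lower of all genes tested. Its median was -0.33, against -0.03 over all genes, and 12 of the 15 were below 0, against 57.4% of all genes. Ctss, cathepsin S, which cleaves the invariant chain, differed by -0.65 ± 0.19 (SE, adjusted p = 0.0476). Il10ra, a receptor chain for the cytokine IL-10, differed by -0.90 ± 0.26 (SE, adjusted p = 0.0427). Ctse, the aspartic protease cathepsin E, differed by 0.69 ± 0.21 (SE, adjusted p = 0.0492). These calls lay close to the threshold: Ctss lost its call in 12 of 18 alternatives, and Il10ra and Ctse in 10 each. With the replicate block the adjusted p was 0.124 for Ctss and 0.0969 for Il10ra.

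Between the control cell types 9 of the 15 processing genes were higher and 4 lower in monocytes, against 29.9% and 28.7% of all genes. Ifi30, a lysosomal thiol reductase that unfolds antigens, averaged 10.29 in control monocytes and 5.66 in control neutrophils, a difference of 4.63 (adjusted p = 8.69e-13). Ctss differed by 4.20 and the cysteine protease Ctsb by 2.27, while Ctse, which was higher in monocytes labelled Zeb2-deficient, differed by -3.14. In neutrophils labelled Zeb2-deficient none of the list passed, against 0.12% of all genes tested.

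Of 9 tested genes of co-stimulation and inhibition, 1 was lower in monocytes labelled Zeb2-deficient, against 2.44% of all genes. Cd40, a receptor through which T cells activate presenting cells, averaged 6.06 in samples labelled Zeb2-deficient and 6.55 in controls, a difference of -0.49 ± 0.12 (SE, adjusted p = 0.0204), lost in 5 of 18 alternatives. Cd86, a ligand of CD28, differed by 1.03 ± 0.23 (SE, adjusted p = 0.17) in neutrophils. Between control monocytes and control neutrophils 4 of the 9 were higher and 3 lower, against 29.9% and 28.7% of all genes. Cd86 differed by 0.87, though it missed the test within set B (0.53, adjusted p = 0.111), Cd40 by 0.83 and Cd80, the other CD28 ligand, by -1.46. The 4-1BB ligand Tnfsf9 averaged 4.66 in control monocytes and 3.75, below the floor, in control neutrophils.

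The MHC class I pathway, which presents peptides from the cytosol, gave a point of comparison. None of its 15 tested genes passed in monocytes labelled Zeb2-deficient, against 7.54% of all genes, and the median was -0.01 against -0.03. The smallest p-values there belonged to the immunoproteasome subunit Psmb10 (-0.37, adjusted p = 0.155) and the disulfide isomerase Pdia3 (0.29, adjusted p = 0.253). In control monocytes against control neutrophils 10 were higher and 1 was lower, against 29.9% and 28.7% of all genes, with a median of 0.83 against -0.08. Psmb10 differed by 2.21, the chaperone Canx by 2.10, the non-classical chain H2-M3 by 1.36 and the peptide trimmer Erap1 by 1.3.

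Markers of other class II positive cells were examined, since such cells could enter the gates. Of 19 conventional dendritic cell markers on the array, Xcr1, Clec9a, Mgl2 and Cd207 were below the floor on every monocyte array. Of the 19, 12 to 13 exceeded it on the monocyte arrays labelled Zeb2-deficient and 11 to 12 on the control monocyte arrays. The mean of the list was 5.25 to 5.32 in monocytes labelled Zeb2-deficient and 5.28 to 5.46 in controls. Of the 15 tested, 4 were lower and 1 was higher in monocytes labelled Zeb2-deficient, against 2.44% lower and 5.11% higher of all genes. Cd209a, a lectin of inflammatory dendritic cells and some monocytes, differed by -1.49 ± 0.18 (SE, adjusted p = 5.07e-05), and Flt3, the receptor for the dendritic cell growth factor, by -0.88 ± 0.20 (SE, adjusted p = 0.0107), though not within set A (adjusted p = 0.483) nor with only the monocyte arrays in the model (adjusted p = 0.0761). Clec10a, a galactose lectin of dendritic cells and macrophages, averaged 4.2 in samples labelled Zeb2-deficient, under the floor, and 4.88 in controls (adjusted p = 0.0487), a call lost in 12 of 17 alternatives. The transcriptional regulator Id2 was higher by 0.88 ± 0.18 (SE, adjusted p = 0.00395), with adjusted p = 0.154 within set A. Between the control cell types 7 of the 15 were higher in monocytes, against 29.9% of all genes, and 4 were lower, against 28.7%. The largest differences were 3.13 for Naaa, 2.26 for Clec10a, 2.21 for Kmo and 2.07 for Dpp4. Clec10a, Kmo and Dpp4 were below the floor on every control neutrophil array. The part of dendritic cells in the class II differences was not tested.

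The B cell markers were mixed. Of the 14 on the array, Cd79a, Ms4a1, Ebf1 and Blnk were below the floor on every array, while 6 to 8 of the 14 exceeded it on the monocyte arrays labelled Zeb2-deficient and 6 to 7 on the control monocyte arrays. The mean of the list was 4.23 to 4.51 in monocytes labelled Zeb2-deficient and 4.30 to 4.42 in controls. None of the 9 tested passed between these groups, against 7.54% of all genes. Cd79b, a signalling chain of the B cell receptor, averaged 6.42 in monocytes labelled Zeb2-deficient and 6.40 in control monocytes. It averaged 5.11 in neutrophils labelled Zeb2-deficient and 4.81 in control neutrophils. Between the control cell types 1 of the 9 was higher in monocytes, against 29.9% of all genes, and 3 were lower, against 28.7%. Cd79b was the higher one, by 1.59 ± 0.25 (SE, adjusted p = 2.57e-05). Cd22 (-0.34, adjusted p = 0.0337) and Fcmr (-0.28, adjusted p = 0.00766) were lower, as was Bank1. Bank1, a B cell scaffold protein, averaged 5.47 in monocytes labelled Zeb2-deficient and 5.5 in controls, and was lower in control monocytes than in control neutrophils (-1.22, adjusted p = 5.71e-05). Vpreb1 averaged 5.05 in monocytes labelled Zeb2-deficient and 5.20 in controls, and Igll1 5.11 in monocytes labelled Zeb2-deficient and 5.1 in controls. The part of B cells in the class II levels was not tested.

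Of 13 macrophage markers, 8 were tested. In monocytes labelled Zeb2-deficient 2 were higher, against 5.11% of all genes tested, and 1 was lower, against 2.44%. The adhesion molecule Vcam1 differed by 2.43 ± 0.54 (SE, adjusted p = 0.00817), with overlapping arrays, and missed the test within set A (1.49, adjusted p = 0.0758) and with only the monocyte arrays in the model (adjusted p = 0.0743). The iron exporter Slc40a1 averaged 5.70 in monocytes labelled Zeb2-deficient and 3.43 in controls, where it was below the floor on every array (adjusted p = 9.53e-05). The mannose receptor Mrc1 differed by -1.35 ± 0.21 (SE, adjusted p = 0.000445) and missed the test within set A (-1.05, adjusted p = 0.085). Cd5l, Mertk, Vsig4 and Cd163 were below the floor on all arrays. Of the 13 markers, 6 to 7 exceeded it on the monocyte arrays labelled Zeb2-deficient and 5 to 7 on the control monocyte arrays. Between the control cell types 3 of the 8 were higher in monocytes, against 29.9% of all genes, and 3 were lower, against 28.7%. Adgre1 averaged 8.62 in control monocytes and 7.06 in control neutrophils, while Slc40a1 differed by -4.86.

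The genes most like the class II group were sought over the whole table. Over the 18 arrays the mean of the 6 genes, each centred, was followed most closely by Nsa2 and Ybx3 (Pearson r = 0.992 each), and Ifi30 was 8th at 0.988. All 18 arrays share the split between the cell types. On deviations from the group means over the 16 poly(I:C) arrays, the closest were BC002059 (0.935), Mkrn1-ps1 (0.915), Creg1 (0.879) and Psma1 (0.876). Ybx3 was the gene named by both measures, at 0.85 by the second.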

How the data were processed

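Sorted bone marrow monocytes and neutrophils were profiled on 18 Affymetrix Mouse Gene 1.0 ST arrays, per the header of the probe annotation, after extraction with the RNAqueous-Micro kit and target preparation with Ovation PicoSL, per the labels' protocols. The deposited values are log2 intensities per probe set, which the authors summarised by RMA, as the submitters' processing notes record; the sources used here do not name its software or version. Array medians lay between 4.81 and 4.92.

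Of 30177 probe sets, 21789 carried 1 symbol and were used. A gene was tested if above the 40th percentile of its array in at least 4 of the 18 arrays. limma 3.58.1 in R 4.3.3 was fitted with 1 mean a group, a trend in the variance prior and 12 residual degrees of freedom; tests are two-sided, adjusted by Benjamini-Hochberg over 13387 genes, with a threshold of 0.05. The 5 contrasts share arrays, so they are not independent of each other. Untreated arrays entered no contrast. The code was tested on simulated data. No pair of arrays held identical values.

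All 7 class II genes are named, and from each other list up to 4 genes past the threshold with the largest change, or up to 2 with the smallest p where none passed. The class II genes and the lists were chosen with earlier results of these data known. Replicate numbers come from the titles. Labelled Zeb2-deficient and control arrays of the same number and cell type correlated in their deviations at 0.183 to 0.428, over 0.1 in 6 of 6 pairs. Pairs of other number in the same array set reached 0.127 to 0.348, over 0.1 in 10 of 10. Monocyte and neutrophil arrays of the same number and genotype label gave 0.059 to 0.259, over 0.1 in 7 of 8 pairs. Those of other number in the same set gave 0.123 to 0.237. The array set could give such values alone, so they do not establish pairing by number. The main model, also for the cell type contrasts, treated the arrays as unpaired, and the number entered only as an alternative block. Alternatives changed normalization, the filter, probe set choice, the variance trend, the arrays fitted, blocks for number or array set, and left out each array.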

Additional observations from a re-analysis of the deposited data

How the results depend on the processing

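Over the 6 class II genes and 5 comparisons, 588 alternative values were computed, of which 558 kept their direction and their side of the threshold, 16 changed sign, 10 lost a call and 4 gained one; where no other reason is given, the cause was not tested. The count of class II genes past the threshold in monocytes labelled Zeb2-deficient was 0, and 1 with the array set as a block, 1 within set B and 0 to 1 when single arrays were left out, that gene being H2-DMa. The count for the difference between the changes was 0, and 1 within set B (Cd74). No sign that changed belonged to a called difference. In neutrophils Ciita changed by 0.01, and by 0 after quantile normalization, -0.01 with the replicate block, -0.18 within set A and -0.05 to 0.08 without single arrays. Within set A the neutrophil change was -0.11 for H2-Aa, 0.07 for H2-DMa and -0.24 for Cd74, the Ciita change in monocytes 0.02, that of H2-Ob 0.05, and the difference between the changes 0.12 for H2-Ab1 and 0.2 for Ciita. Within set B the H2-Ab1 change in neutrophils was 0.28, the Vpreb1 change in monocytes 0.02, and H2-Oa in control monocytes minus control neutrophils -0.01. Without single arrays the difference between the changes of H2-Ab1 ran from -0.37 to 0.1, and H2-Oa between the control cell types from -0.02 to 0.16. In samples labelled Zeb2-deficient, H2-Eb1 between monocytes and neutrophils lost its call without monocyte array 3 or 4 or neutrophil array 1, 2 or 3, with adjusted p of 0.0509 to 0.126. The replicate block changed no call of a class II gene, and among the other genes named it ended those of Nfyb, Il10ra, Ctss and Ms4a4c (-0.69, adjusted p = 0.0649).

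Counts over all genes moved more. In monocytes labelled Zeb2-deficient 1010 genes passed, against 500 with only the arrays compared, 1516 with the set block, 215 within set A and 1724 within set B, and 620 to 2001 without single arrays. In neutrophils 16 passed, against 9 with only the arrays compared, 3 within set A and 8 to 17 without single arrays, and for the difference between the changes 359, against 567 with the set block, 72 within set A, 731 within set B and 245 to 904 without single arrays. Values within a set rest on 2 arrays against 2. Signal near the floor limits the neutrophil values: H2-Aa lay below it on 2 of the 4 controls, and the lowest neutrophil array was at percentile 40.5 of its array for Cd74, 40.6 for H2-DMa, 42.6 for Ciita and 44.6 for H2-Ab1.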

Other observations

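The remaining marker lists describe the sorted cells around the class II genes. Among 12 neutrophil markers, 11 were higher in monocytes labelled Zeb2-deficient than in controls, against 5.11% of all genes tested, with log2 differences of 5.55 for the secreted protein Retnlg, 4.28 for the granule protein Ltf and 3.66 for the chemokine receptor Cxcr2. The surface marker Ly6g averaged 9.08 in monocytes labelled Zeb2-deficient and 3.9, under the floor, in controls. None of the 12 passed in neutrophils, against 0.12% of all genes. Of 10 Ly-6C(hi) monocyte markers, 5 were lower, against 2.44% of all genes, among them the fractalkine receptor Cx3cr1 (-1.17), the growth factor receptor Csf1r (-0.87), Ms4a4c (-0.81) and Ms4a6b (-0.74). None of these 4 passed within set A, where only 215 of all 13387 genes did. Their adjusted p there was 0.258 for Cx3cr1, 0.506 for Csf1r, 0.636 for Ms4a4c and 0.554 for Ms4a6b. Over 18 alternatives Cx3cr1 lost its call in 1, Csf1r in 8, Ms4a4c in 6 and Ms4a6b in 10, among them quantile normalization for Ms4a6b (adjusted p = 0.0563) and only the arrays compared for Csf1r (adjusted p = 0.11) and Ms4a6b (adjusted p = 0.121). Of 9 tested Ly-6C(low) monocyte markers, 2 were lower, against 2.44% of all genes, namely the transcription factors Nr4a1 (-0.92) and Pou2f2 (-0.70). Neither passed within set A (adjusted p of 0.388 for Nr4a1 and 0.637 for Pou2f2), nor did Pou2f2 with only the arrays compared (adjusted p = 0.072).

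Of 8 tested plasmacytoid dendritic cell markers, 1 was higher and 1 lower in monocytes labelled Zeb2-deficient, against 5.11% and 2.44% of all genes. The chemokine receptor Ccr9 averaged 4.96 in samples labelled Zeb2-deficient and 3.88 in controls (adjusted p = 0.00465), where it was below the floor on every array, and missed the test within set A (adjusted p = 0.0756). The E protein Tcf4 differed by -0.87 ± 0.17 (SE, adjusted p = 0.00252) and also missed it within set A (adjusted p = 0.181). The defining lectin Siglech was below the floor on every array. Of the 10 on the array, 7 to 8 exceeded it on monocyte arrays labelled Zeb2-deficient and 6 to 7 on control monocyte arrays. Of the 8 tested, 3 were higher and 3 lower in control monocytes than in control neutrophils, against 29.9% and 28.7% of all genes. Bst2 averaged 7.76 in control monocytes and 5.67 in control neutrophils, and Bcl11a 7.41 and 6.01. The part of plasmacytoid dendritic cells in the class II levels was not tested. None of 5 tested T and NK cell markers passed in monocytes labelled Zeb2-deficient, against 7.54% of all genes. In neutrophils labelled Zeb2-deficient no gene of any list passed, against 0.12% of all genes tested. The smallest adjusted p among conventional dendritic cell markers was 0.126, for the integrin Itgax (0.77 ± 0.17 (SE)).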
